A study of Mus musculus with 12 samples.

Results

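The insulin receptor and the proteins that carry its signal to Akt were examined in mouse liver at the level of mRNA. The set held 9 genes, chosen by name and with earlier results of these data known. They were the receptor Insr, its substrates Irs1 and Irs2, the receptor inhibitor Grb14, the PI3-kinase subunits Pik3r1 and Pik3ca, and the kinases Pdpk1, Akt1 and Akt2. All 9 were among the 19938 genes that the arrays measure through a probe set naming a single gene. All 9 also passed the filter that left out the 25% of genes with the lowest mean, and were tested among 14953 genes. Livers came from mice 7 weeks old of mixed C57BL/6 and NMRI stock, crossed back at least 4 times to C57BL/6. There were 3 groups of 4 animals, with 1 array each. Controls were wild type, with no treatment named in the labels. The transgenic group carried constitutively active FoxO3 driven by the LAP promoter, which is used to express transgenes in hepatocytes. The metformin group carried the same transgene and received metformin, a glucose-lowering biguanide whose dose, route and duration the labels do not state. The 12 livers include none from wild type mice on metformin, so an effect of the drug without the transgene was not tested.

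Insulin binding activates the kinase in its receptor, which phosphorylates the substrates Irs1 and Irs2. The phosphorylated substrates recruit PI3-kinase, made of a regulatory and a catalytic subunit, and the lipid it forms brings Akt to the membrane, where Pdpk1 phosphorylates it. Akt in turn phosphorylates FoxO factors and keeps them out of the nucleus, and a constitutively active FoxO escapes this control. In the fasted liver FoxO factors raise Irs2 and other genes that insulin represses. Transcript levels say nothing directly about phosphorylation or kinase activity.

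The animals also differed in transcripts of the sex chromosomes, and the labels give no sex. Xist, the RNA that coats an inactive X chromosome, was low in every transgenic liver without metformin (log2 signal 4.24 to 4.70) and high in every liver with it (10.57 to 11.95). The wild type group was mixed, with high Xist in replicates 1 (11.73) and 4 (11.66) and low Xist in replicates 2 (4.36) and 3 (4.30). The mean of the Y-linked genes Eif2s3y, Kdm5d and Uty ran the other way. Comparing transgenic livers with and without metformin thus also compares Xist arrays with Y-signal arrays, and the wild type group alone holds both kinds. Transgenic replicate 2 correlated more closely with wild type arrays (mean r = 0.984 across genes) than with its own group (0.968). Among livers given metformin, replicate 3 was the least like the rest (mean r = 0.974 with them). Array medians lay between 5.69 and 5.85. The 9 hepatocyte markers measured averaged between 13.01 and 13.26 on every array, with 2 of them lower in transgenic against wild type livers and 2 higher with metformin than without it. Of 12 Kupffer cell and macrophage markers 4 rose in transgenic against wild type livers, and 4 were lower with metformin than without it. Their mean level lay between 8.75 and 9.50 in wild type, 9.33 and 10.13 in transgenic and 8.63 and 9.50 in metformin-treated livers. Over all genes 7.97% were higher and 6.15% lower in the first comparison, and 10.6% higher and 14.1% lower with metformin. Of 10 stellate cell and fibroblast markers 1 rose and 1 fell in transgenic livers, and 1 was lower with metformin. Of 2 adipocyte markers tested 1 rose, and 1 was lower with metformin. No endothelial, lymphocyte or cholangiocyte marker passed in either comparison. In whole liver, fewer cells of a type and less RNA per cell cannot be told apart.

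In transgenic livers 4 of the 9 genes were higher than in wild type at an adjusted p under 0.05 (limma, Benjamini-Hochberg over all genes tested). They were Irs2, Pdpk1, Akt1 and Pik3ca, encoding an adaptor, the kinase that phosphorylates Akt, 1 of the 2 Akt isoforms in the set and the catalytic PI3-kinase subunit. Over all genes 14.1% were called in this comparison, 7.97% higher and 6.15% lower. In 6 of the 9 the arrays of these groups did not overlap, against 21.9% of all genes. The median log2 difference of the 9 genes was 0.57, against -0.01 over all genes. In metformin-treated livers 5 of the 9, the same 4 and Irs1, were lower than in untreated transgenic livers, where 24.7% of all genes were called, 10.6% higher and 14.1% lower. In 4 of the 9 these groups did not overlap, against 21.6% of all genes. There the median was -0.46, against -0.01 over all genes. Against wild type livers none of the 9 genes was called by limma in metformin-treated livers, with 2.43% of all genes called, 0.99% higher and 1.44% lower. At an unadjusted p under 0.05 there were 2, Akt2 and Grb14. All genes were not counted at that threshold, but Irs1, with a limma p of 0.0518, ranked 2605 of 14953 genes. The arrays of these groups did not overlap in 4 of the 9, against 14.4% of all genes. By limma's moderated F test 5 of the 9 differed among the 3 groups, Irs1, Irs2, Pik3ca, Pdpk1 and Akt1, against 24.2% of all genes. The first and second comparisons share the transgenic arrays, so their values are not independent. Without transgenic replicate 2 the counts were 6 of 9 in each, against 26.8% and 32.3% of all genes. In a fit with the sex signal as a covariate they were 3 and, in limma, 0, against 4.35% and 0.548% of all genes. In the second, 4 of the 9 had an unadjusted p under 0.05, a threshold at which all genes were not counted.

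**Figure D1:**
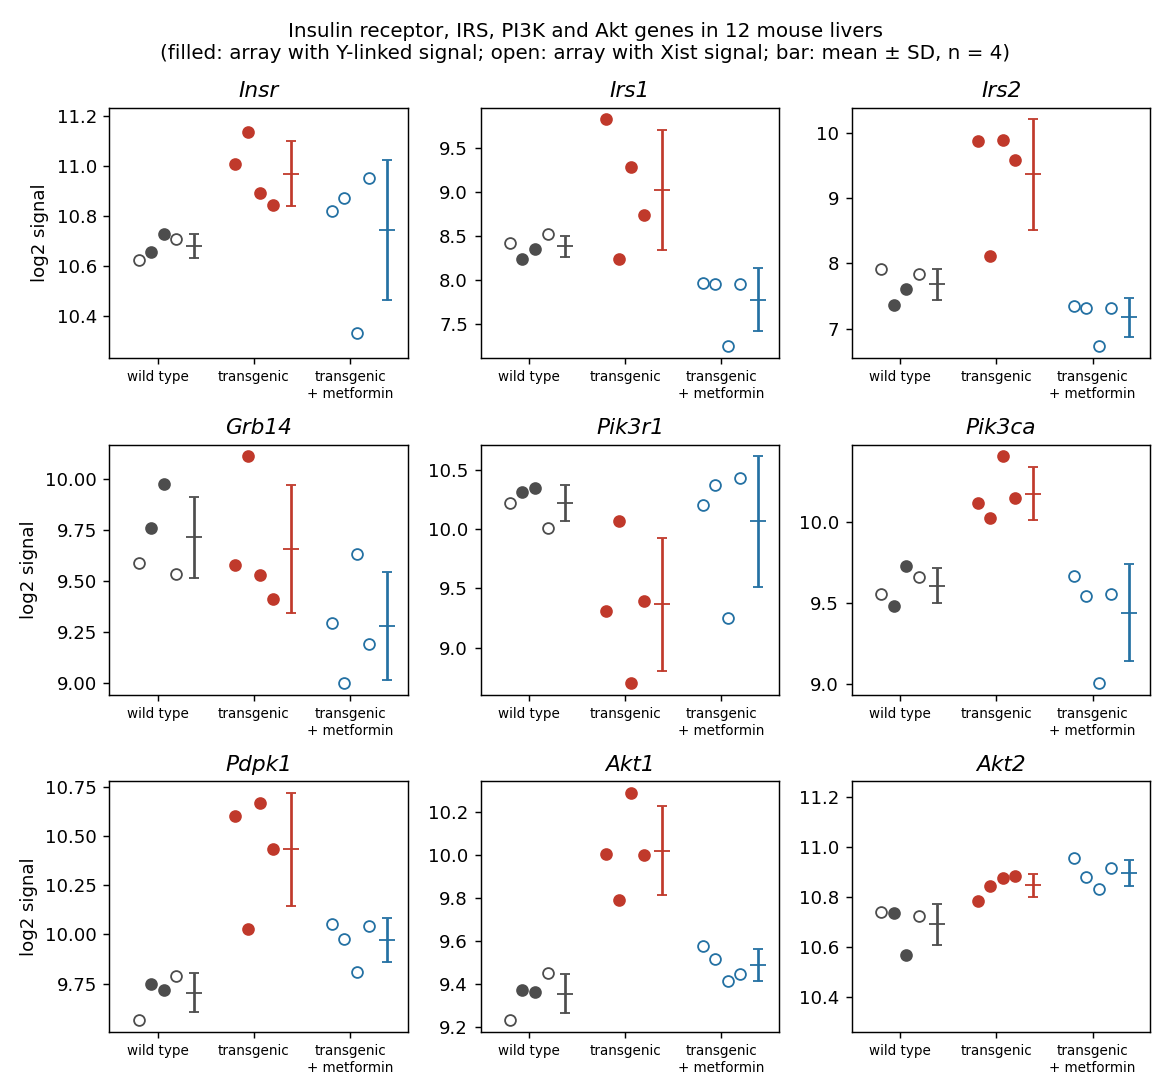
The log2 signal of each gene is plotted for every liver by group, with the group mean and SD (n = 4) at the side. Filled points are arrays with Y-linked signal and open points arrays with Xist signal, and the axes differ between panels. Insr, Irs2, Pik3ca, Pdpk1, Akt1 and Akt2 show all 4 transgenic livers above all 4 wild type livers. In that comparison the groups did not overlap for 21.9% of all genes.

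Insr, the receptor itself (probe set 10576692), passed in none of the 3 comparisons. It read 10.62, 10.66, 10.73 and 10.71 in wild type, 11.01, 11.14, 10.89 and 10.84 in transgenic and 10.82, 10.87, 10.33 and 10.95 in metformin-treated livers. All transgenic livers lay above all wild type livers, while metformin-treated livers spread over both. The difference between transgenic and wild type was 0.29 ± 0.12 (limma estimate ± SE, adjusted p = 0.128; 95% interval 0.02 to 0.56), which did not pass. It passed when metformin-treated replicate 3 was left out, where its SE was 0.07 (adjusted p = 0.0211), and with arrays centred on their medians (0.36 ± 0.11, adjusted p = 0.0447). It also passed with array weights (0.23 ± 0.08, adjusted p = 0.0456). With those weights metformin-treated livers differed from wild type too (0.23 ± 0.07, adjusted p = 0.0316). Over the array the weights called 4818 and 3057 genes in these comparisons, against 2111 and 364. With metformin the difference from untreated transgenic livers was -0.23 ± 0.12 (adjusted p = 0.20). It shrank to -0.09 without metformin-treated replicate 3 and to -0.0033 with array weights. A further Insr probe set gave 0.30 and -0.34 for these differences.

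Irs2, the substrate most closely tied to insulin action in liver, had the largest differences of the 9 in both comparisons with the transgenic group (probe set 10576971). Wild type livers read 7.91, 7.37, 7.61 and 7.83. Transgenic livers read 9.87, 8.11, 9.90 and 9.58. Metformin-treated livers read 7.35, 7.32, 6.73 and 7.31. All transgenic livers were above every liver of both other groups, and replicate 2 lay closest to wild type. The mean was 9.37 ± 0.85 (SD, n = 4) in transgenic against 7.68 ± 0.24 in wild type livers, a rise of 1.69 ± 0.33 or 3.22-fold (adjusted p = 0.00975). Without transgenic replicate 2 it was 2.10 ± 0.17. The difference with metformin was -2.19 ± 0.33 (adjusted p = 0.00114), down to a mean of 7.18 ± 0.30. Every metformin-treated liver lay below the lowest wild type liver, yet the difference of -0.50 ± 0.33 from wild type did not pass (adjusted p = 0.497). In that comparison the groups did not overlap for 14.4% of all genes. The fit uses 1 spread for all groups, although for Irs2 the SD was largest among transgenic livers.

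Irs1, the other main substrate (probe set 10356084), varied most among transgenic livers. They read 9.83, 8.24, 9.29 and 8.74. Wild type livers read 8.42, 8.23, 8.35 and 8.52, and metformin-treated livers 7.96, 7.95, 7.24 and 7.95. Transgenic replicate 2 sat within the wild type range and the other transgenic livers above it. The difference between transgenic and wild type, 0.64 ± 0.28, did not pass (adjusted p = 0.140; 95% interval 0.03 to 1.26) but did without transgenic replicate 2 (0.91 ± 0.24, adjusted p = 0.0152). Without transgenic replicate 1 it moved the other way, to 0.37 ± 0.23 (adjusted p = 0.321). With metformin Irs1 fell by 1.25 relative to untreated transgenic livers (SE 0.28, adjusted p = 0.00817). All metformin-treated livers also lay below all wild type livers. That difference was -0.61 ± 0.28 (adjusted p = 0.297), and 14.4% of all genes did not overlap in this comparison. A second, much dimmer Irs1 probe set had a mean of 4.57 over all arrays and gave 0.27 and -0.27 for the first 2 comparisons. Averaging both probe sets brought the difference with metformin to -0.76 ± 0.17 (adjusted p = 0.00901).

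The sequences just before the annotated starts of Irs1 and Irs2 are shown because both hold the same pair of motifs side by side. They are the 250 bases upstream of the start in RefSeq's annotation of GRCm38.p6, read 5′ to 3′ on the gene's strand, with matches in capitals. The motifs are CACGTG, an E-box bound by basic helix-loop-helix factors, and TGTTTTG, letters of the insulin response element to which FoxO factors can bind. The Irs1 stretch is chr1:82291440-82291689 and the Irs2 stretch chr8:11008930-11009179, both on the minus strand.
Irs1: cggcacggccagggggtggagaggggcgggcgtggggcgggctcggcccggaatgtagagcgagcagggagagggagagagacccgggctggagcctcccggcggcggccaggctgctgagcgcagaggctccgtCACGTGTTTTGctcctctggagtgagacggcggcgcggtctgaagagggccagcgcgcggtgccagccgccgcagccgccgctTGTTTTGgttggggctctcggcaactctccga
Irs2: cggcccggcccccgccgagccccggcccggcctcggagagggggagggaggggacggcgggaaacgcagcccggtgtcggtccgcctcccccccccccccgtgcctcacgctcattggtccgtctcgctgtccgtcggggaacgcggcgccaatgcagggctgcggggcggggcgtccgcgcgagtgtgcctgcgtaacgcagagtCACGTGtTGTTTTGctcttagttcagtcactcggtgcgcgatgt
In Irs2 1 base separates the E-box from TGTTTTG, which begins 37 bases before the start. In Irs1 the motifs share 2 bases and the TGTTTTG begins 111 bases before the start, with another copy 32 bases before it. Over 32851 such windows of all genes, 6.02% hold CACGTG and 5.56% TGTTTTG on either strand, and 0.295% hold both. The Irs1 and Irs2 windows are GC-rich, at 72.4% and 72.8% against a median of 52.4%, and the shares were not matched for this. A match describes the letters and does not show that a factor binds there.

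Grb14, an adaptor that binds the active receptor and inhibits it (probe set 10483163), did not follow the substrates. Wild type livers read 9.59, 9.76, 9.98 and 9.53, transgenic livers 9.58, 10.11, 9.53 and 9.41, and metformin-treated livers 9.29, 9.0, 9.63 and 9.19. The groups overlapped, and the highest reading was that of transgenic replicate 2. In wild type livers both Y-signal arrays, replicates 2 and 3, lay above both Xist arrays. The difference between transgenic and wild type was -0.06 ± 0.17 (adjusted p = 0.836; 95% interval -0.43 to 0.31) and turned to 0.01 when each array was centred on its median. With metformin it was -0.38 ± 0.17 against untreated transgenic livers (adjusted p = 0.124) and -0.03 ± 0.26 with the sex covariate. It passed without metformin-treated replicate 3 (-0.50 ± 0.16, adjusted p = 0.0419). Without transgenic replicate 2 it was smaller (-0.23 ± 0.15, adjusted p = 0.263), and with the covariate as well it turned to 0.09 ± 0.20.

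The PI3-kinase subunits had estimates of opposite sign, in both comparisons with the transgenic group, and in these those of the catalytic subunit passed. Pik3ca, the catalytic subunit p110 alpha (probe set 10491331), read 9.56, 9.48, 9.73 and 9.66 in wild type and 10.12, 10.02, 10.41 and 10.15 in transgenic livers. Metformin-treated livers read 9.66, 9.54, 9.0 and 9.55. Here transgenic replicate 2 stood with its group, and transgenic livers lay above both other groups. The rise was 0.57 ± 0.14, or 1.48-fold (adjusted p = 0.0206), and the difference with metformin -0.74 ± 0.14 (adjusted p = 0.00332). The rise did not pass without transgenic replicate 3 (adjusted p = 0.0692), wild type replicate 1 (0.0563) or wild type replicate 2 (0.0577).

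Pik3r1, which encodes the regulatory subunit p85 alpha and its shorter forms (probe set 10411782), had its lowest mean in transgenic livers. It read 10.22, 10.31, 10.34 and 10.01 in wild type, 9.31, 10.06, 8.70 and 9.39 in transgenic and 10.21, 10.37, 9.25 and 10.43 in metformin-treated livers. Transgenic replicate 2 lay inside the wild type range and metformin-treated replicate 3 among the transgenic values. The difference between transgenic and wild type was -0.85 ± 0.29 (adjusted p = 0.0659; 95% interval -1.47 to -0.23), and with metformin it was 0.70 ± 0.29 (adjusted p = 0.0955). Neither passed with all arrays. Without transgenic replicate 2 both passed (-1.08 ± 0.26, adjusted p = 0.0103, and 0.93 ± 0.26, adjusted p = 0.0177), and so did both without metformin-treated replicate 3 (adjusted p = 0.0218 and 0.0119).

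Pdpk1, the kinase that phosphorylates the activation loop of Akt (probe set 10448424), read 9.56, 9.75, 9.72 and 9.79 in wild type and 10.60, 10.03, 10.66 and 10.43 in transgenic livers. Metformin-treated livers read 10.05, 9.98, 9.81 and 10.04. Transgenic replicate 2 was again the lowest of its group and lay among the metformin-treated livers, which in turn were all above wild type. The rise was 0.73 ± 0.13, or 1.65-fold (adjusted p = 0.00578). With metformin the level fell by 0.46 from that of untreated transgenic livers (SE 0.13, adjusted p = 0.0202), a call lost without transgenic replicate 1 (0.0588) or 3 (0.0646). The level in metformin-treated livers differed from wild type by 0.27 ± 0.13 (adjusted p = 0.313).

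Akt1 had the smallest p of the 9 for transgenic against wild type (probe set 10402766). It read 9.23, 9.38, 9.37 and 9.45 in wild type, 10.01, 9.79, 10.29 and 10.00 in transgenic and 9.58, 9.52, 9.41 and 9.45 in metformin-treated livers. The transgenic livers lay above all the others and metformin-treated livers overlapped wild type. The rise was 0.67 ± 0.10, or 1.59-fold (adjusted p = 0.00297), and the difference with metformin -0.53 ± 0.10 (adjusted p = 0.00331). Both calls held whichever array was left out.

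Akt2, the Akt isoform most tied to insulin's metabolic actions in liver (probe set 10374364), passed in none of the 3 comparisons. It read 10.74, 10.74, 10.57 and 10.72 in wild type, 10.78, 10.84, 10.88 and 10.89 in transgenic and 10.96, 10.88, 10.83 and 10.92 in metformin-treated livers. Both transgenic groups lay above wild type without overlap, but by 0.16 ± 0.07 (adjusted p = 0.128; 95% interval 0.01 to 0.30) and 0.20 ± 0.07 (adjusted p = 0.128; 0.06 to 0.35). The difference with metformin was 0.05 ± 0.07 (adjusted p = 0.624) and turned to -0.01 when arrays were centred on their medians. That centring also brought the difference between transgenic and wild type to 0.22 ± 0.07, which passed (adjusted p = 0.0476). The other Akt2 probe set gave 0.14 for each difference from wild type.

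The upstream sequence of the farther of the 2 annotated Akt1 starts is shown because it was the one window of these genes that held TGTTTAC, the forkhead core bound by FoxO and FoxA factors. It is chr12:112674885-112675134 on the minus strand of GRCm38.p6, with the match in capitals.
Akt1: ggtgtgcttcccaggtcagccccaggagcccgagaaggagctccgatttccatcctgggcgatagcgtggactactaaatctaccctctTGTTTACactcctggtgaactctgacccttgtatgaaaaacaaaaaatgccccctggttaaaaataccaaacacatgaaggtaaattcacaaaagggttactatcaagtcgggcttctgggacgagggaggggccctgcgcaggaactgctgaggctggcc
The match begins 161 bases before that start, and 3.17% of all windows hold the letters on either strand. The window before the other Akt1 start held none of the motifs searched. Which start liver uses was not measured. Of the 9 genes 8 had an entry in the table, with 14 windows. Neither the cAMP response element TGACGTCA nor the sterol motif TCACNCCAC was in any of them, against 1.55% and 1.05% of all windows, and the form TATTTTG (3.95% of all windows) was in 1 Pik3r1 window.

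**Figure D2:**
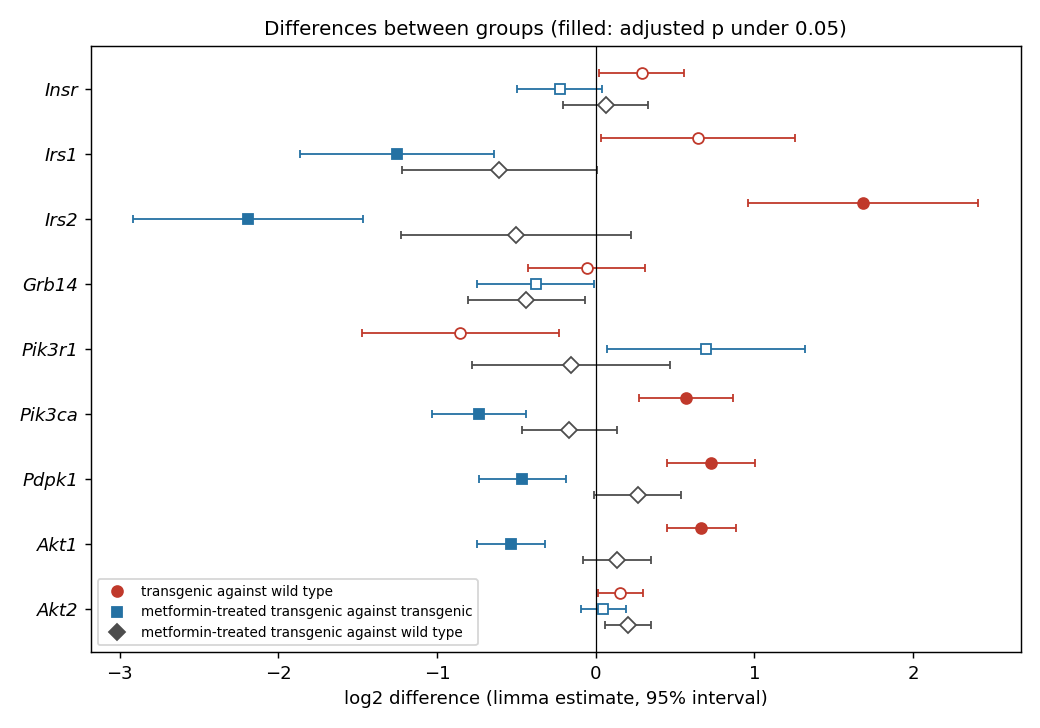
Log2 differences of the 9 genes are plotted for the 3 comparisons as limma estimates with 95% intervals, filled where the adjusted p is under 0.05. Irs2 lies farthest from 0, at 1.69 for transgenic against wild type and -2.19 for metformin-treated against untreated transgenic livers, and the Akt2 estimates lie between 0.05 and 0.20.

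With the sex signal fitted as a covariate (Xist minus the Y-linked mean of each array), the 4 rises called in transgenic livers had estimates near those above. Irs2 was at 1.92 ± 0.39 (adjusted p = 0.0292), Pdpk1 at 0.72 ± 0.16 (0.0341) and Akt1 at 0.67 ± 0.12 (0.0204). Pik3ca was at 0.60 ± 0.17 and did not pass (adjusted p = 0.0661), in a fit that called 650 genes against 2111. Among arrays with Y-linked signal only, which set the 4 transgenic livers against wild type replicates 2 and 3, the estimates were 1.88 for Irs2, 0.57 for Pik3ca, 0.70 for Pdpk1 and 0.65 for Akt1. In that fit of 6 arrays 0 of the 9 genes passed in limma (adjusted p from 0.141 for Akt1 to 0.556 for Grb14). For the 4 genes just named the adjusted p was at most 0.171 (Irs2), and 6 of the 9 passed at an unadjusted p under 0.05. At the adjusted threshold only 9 of all genes tested passed there, and all genes were not counted at the unadjusted one.

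For metformin-treated against untreated transgenic livers the sex covariate ended all 5 calls. It also brought the genes called over the whole array from 3695 to 82. Only the wild type group held both kinds of array, so the slope of the covariate rests mainly on that group. Metformin and the sex signal cannot be told apart in this comparison. The estimates stayed as large or nearly so. Irs2 was at -2.66 ± 0.54 (adjusted p = 0.0551), Irs1 at -1.54 ± 0.47 (0.120), Pik3ca at -0.80 ± 0.23 (0.110), Akt1 at -0.53 ± 0.17 (0.131) and Pdpk1 at -0.45 ± 0.22 (0.269). With that covariate and without transgenic replicate 2 all 5 passed, with Irs2 at -3.02 ± 0.23 (adjusted p = 5.78e-04) and Pik3ca nearest the threshold (0.0439). Of the untreated transgenic arrays that replicate was the closest to wild type. Leaving it out raised the genes called over the whole array from 82 to 1845, so the calls regained do not test the sex signal. Among arrays with Xist signal only, metformin-treated livers differed from wild type replicates 1 and 4 by -0.69 ± 0.19 for Irs2 and -0.70 ± 0.22 for Irs1. Neither passed (adjusted p = 0.220 and 0.271).

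**Figure D3:**
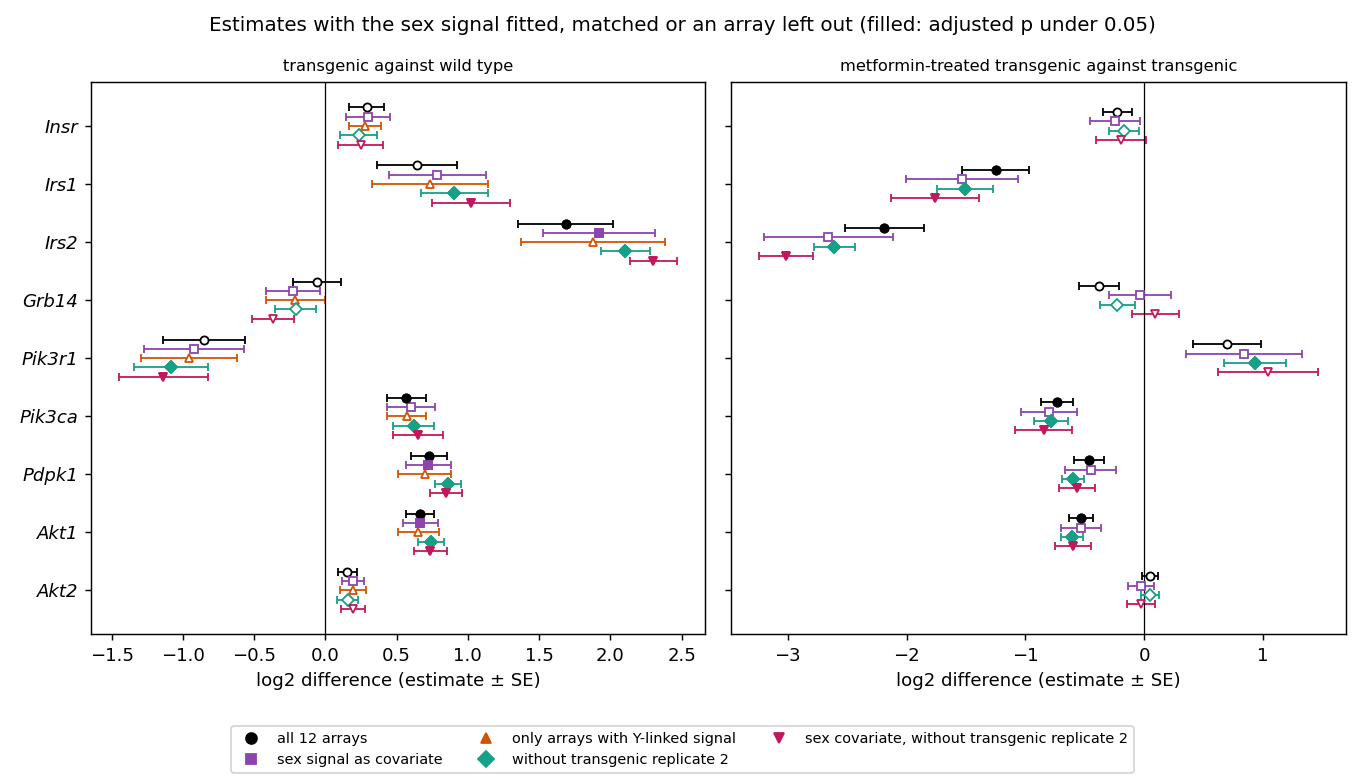
Log2 differences (estimate ± SE) of the 9 genes are plotted for both comparisons with the transgenic group, with all arrays, with the sex signal as a covariate, in arrays with Y-linked signal only (first panel), without transgenic replicate 2, and with both that omission and the covariate. Points are filled where the adjusted p is under 0.05, and the estimates for Irs2, Pik3ca, Pdpk1 and Akt1 stay on one side of 0 while all 5 metformin calls end with the covariate alone (Irs2 adjusted p = 0.0551).

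The genes whose pattern over the 12 arrays was most like those of Akt1, Irs2, Pdpk1 and Pik3ca, the 4 with the smallest F p, were found by Pearson correlation across all genes tested. Closest to Irs2 were Spi1 (r = 0.99), a transcription factor of myeloid cells, the glycosyltransferase gene B4galt6 (0.98) and the G protein subunit gene Gnb1 (0.98). Closest to Akt1 were the histone variant gene Macroh2a2 (0.98), Rpusd1 (0.98) and Adamdec1 (0.97). Pdpk1 was closest to Kbtbd2 (0.96), the nucleoporin gene Nup160 (0.96) and the exoribonuclease gene Dis3 (0.96). Pik3ca was closest to Sash1 (0.98), the casein kinase gene Csnk1d (0.98) and Cep170 (0.98). These values carry the differences between groups, and the points share arrays and normalization. Within groups, after each group's mean was taken off, they ran from 0.87 to 0.96. Macrophage markers were given above only as ranges by group, which overlapped, and their part in these patterns was not tested.

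The rest of the insulin pathway was listed by role, 103 genes of which 97 were tested. In transgenic against wild type livers 14 rose and 4 fell, 18.6% against 14.1% of all genes. In metformin-treated against untreated transgenic livers 5 rose and 34 fell, 40.2% against 24.7% of all genes. With the sex covariate 6 were higher in the first (6.19% against 4.35% of all genes). In the second none passed by limma, against 0.548% of all genes. There 25 of the 97 had an unadjusted p under 0.05, a threshold at which all genes were not counted. Without transgenic replicate 2 the first had 26 higher and 6 lower (33% against 26.8% of all genes). The second then had 8 higher and 41 lower (50.5% against 32.3%). Against wild type, metformin-treated livers had 2 genes lower, the adaptor Sh2b1 (-0.37) and the receptor phosphatase Ptprf (-0.52). That is 2.06% of the 97 against 2.43% of all genes. With the sex covariate neither of these nor any other of the 97 passed in limma, against 0.0936% of all genes. At an unadjusted p under 0.05 there were 16 of the 97, and all genes were not counted at that threshold. The median difference of the 97 was 0.09, -0.27 and -0.06 in the 3 comparisons.

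Beside the receptor, Igf1r, which binds insulin-like growth factors, rose by 0.97 ± 0.21 in transgenic livers (adjusted p = 0.0129) and was lower with metformin (-1.03 ± 0.21, adjusted p = 0.00461). Ceacam1, which promotes hepatic insulin clearance, was at -0.50 ± 0.15 in transgenic livers (adjusted p = 0.0466), and its relative Ceacam2 at -0.37 ± 0.11 (adjusted p = 0.0414). Neither fall of Ceacam1 and Ceacam2 passed with the sex covariate. These genes of 1 family may share probes, and with metformin Ceacam2 was higher (0.51 ± 0.11, adjusted p = 0.0056) while Ceacam1 did not pass (0.38 ± 0.15, adjusted p = 0.0882).

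The counts by role below stand against 7.97% of all genes higher and 6.15% lower in transgenic livers, and 10.6% higher and 14.1% lower with metformin. With the sex covariate none of the roles had a call with metformin. In transgenic livers the covariate left 3 calls among inhibitors. It left 1 each for the receptor group, the mTORC2 group and the mTORC1, S6 and atypical PKC kinases. None was left among adaptors, other PI3-kinase genes, phosphatases and Akt substrates.

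Among adaptors 3 of 12 rose in transgenic livers (25%) and 4 of 12 were lower with metformin (33.3%). Gab2, a docking protein, was at 0.87 ± 0.24 and -0.91 ± 0.24 for the comparisons, and Sh2b1, which enhances receptor signalling, at -0.01 ± 0.07 and -0.36 ± 0.07. Of 15 inhibitors of the receptor and its substrates 3 rose in transgenic livers (20%) and 6 were lower with metformin (40%). Socs3, a feedback inhibitor, rose by 0.65 ± 0.13 (adjusted p = 0.0102) and was at -0.94 ± 0.13 with metformin (adjusted p = 6.55e-04). Cul7, part of a ubiquitin ligase for Irs1, was at 0.63 ± 0.11 and -0.67 ± 0.11.

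Of 12 other PI3-kinase genes 1 fell in transgenic livers. That was Pik3c2g, a class II enzyme of liver, at -1.02 ± 0.27 (adjusted p = 0.0279), and it was higher with metformin (1.23 ± 0.27, adjusted p = 0.00706). The regulatory subunit gene Pik3r2 was at 0.02 ± 0.09 and -0.33 ± 0.09. Of 10 lipid and Akt phosphatases 1 rose in transgenic livers (10%) and 3 were lower with metformin (30%). Inppl1, the phosphatase SHIP2, was at 0.10 ± 0.10 and -0.48 ± 0.10, and Phlpp1, which dephosphorylates Akt, at 0.17 ± 0.11 and -0.48 ± 0.11.

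Rictor, the defining subunit of the mTORC2 kinase that phosphorylates Akt, was the 1 of 13 partner genes that rose in transgenic livers (0.83 ± 0.18, adjusted p = 0.0158). It was lower with metformin (-0.67 ± 0.18, adjusted p = 0.0201), with 4 others, among them the chaperone gene Hsp90aa1 (-0.78 ± 0.14). Of 16 Akt substrates 2 rose and 1 fell in transgenic livers, 18.8% in all against 14.1% of all genes. With metformin 1 was higher and 5 lower, 37.5% in all against 24.7%. Akt1s1, the mTORC1 inhibitor PRAS40, was at 0.50 ± 0.13 and -0.71 ± 0.13, and Tsc1, of the complex that restrains mTORC1, at 0.32 ± 0.12 and -0.59 ± 0.12. Of 14 genes listed as mTORC1, S6 and atypical PKC kinases 3 rose in transgenic livers, and 2 were higher and 8 lower with metformin (71.4% in all). The 2 higher were Mapk8 and Ikbkb. The 8 lower were Rptor, Eif4ebp1, Eif4ebp2, Prkci, Prkcz, Prkcd, Prkce and Sgk3, so the count is not one of mTORC1 genes alone. The translation repressor Eif4ebp1 was at 0.62 ± 0.11 and -0.78 ± 0.11, and the atypical kinase Prkcz at 0.34 ± 0.12 (adjusted p = 0.0838) and -0.62 ± 0.12.

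**Figure D4:**
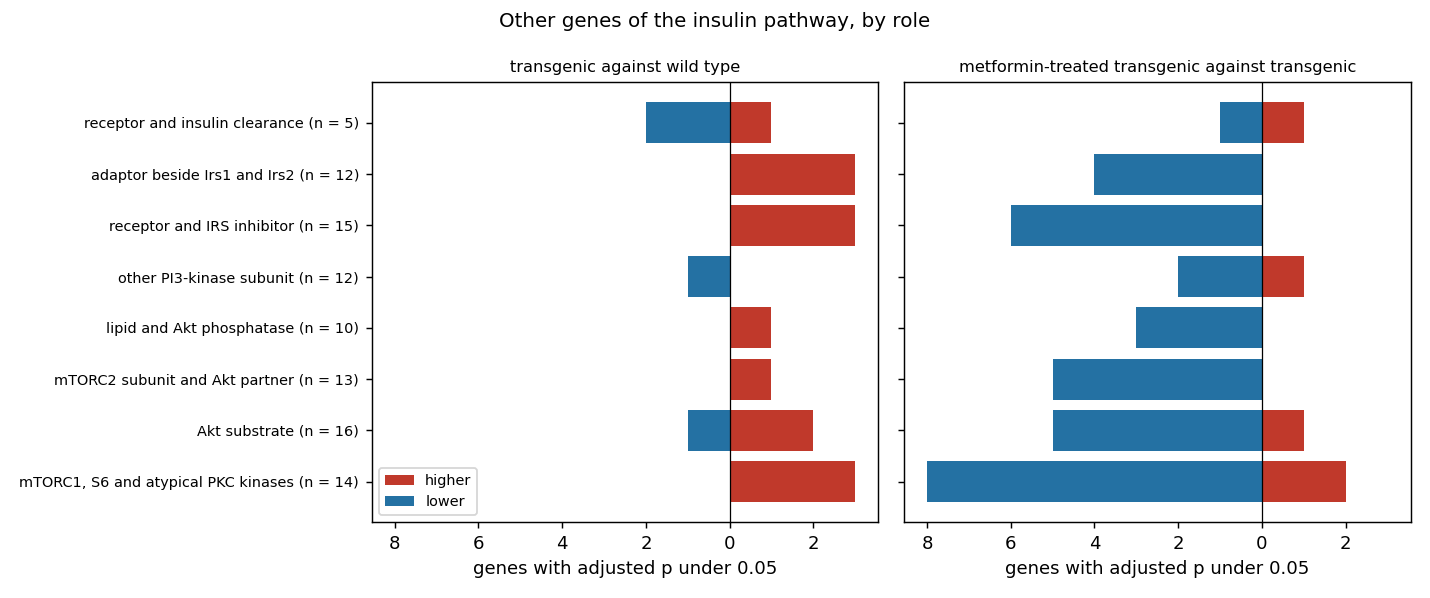
Bars give the number of tested genes of each role with an adjusted p under 0.05, to the right where higher and to the left where lower, for transgenic against wild type and metformin-treated against untreated transgenic livers. In the second panel the lower genes reach 8 of 14 for mTORC1, S6 and atypical PKC kinases, while the receptor group holds 1 in each direction.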

How the data were processed

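Total liver RNA was biotin-labelled as whole-transcript sense target and put on 1-colour Affymetrix arrays, per the labels' protocols. Affymetrix Expression Console appears in the submitters' processing notes. The deposited table holds log2 signals, 35556 rows by 12 arrays; the sources used here do not state how the authors summarised and normalized the probes. Array medians lay between 5.69 and 5.85, and nothing further was applied. The medians of untreated transgenic arrays (5.71 to 5.74) were all below those of wild type arrays (5.76 to 5.83). Only the 21789 rows naming 1 gene in the platform annotation were used; for a gene with several rows, the row with the highest mean stood for it. Signal over background is unknown, and the number of arrays limits the precision.

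Groups and replicate numbers came from the titles, which call the samples biological replicates. Groups were compared by limma (version 3.58.1, R 4.3.3; lmFit and eBayes over all 12 arrays with 9 residual degrees of freedom, no covariate, two-sided), with Benjamini-Hochberg adjustment over 14953 genes and a threshold of 0.05. The code was tested on simulated data. Values after ± are standard errors unless called SD. Same-numbered arrays were not paired: correlations of their deviations ran from -0.18 to 0.24. All 9 genes are described. Per role, the 2 genes with the smallest F p are named. Ceacam1, Ptprf and the further genes named among the mTORC1, S6 and atypical PKC kinases were added after their values were seen. The 3 most similar genes are given for the 4 genes with the smallest F p. The genes and lists were chosen with earlier results of these data known. Promoter windows came from RefSeq tables of GRCm38.p6.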

Additional observations from a re-analysis of the deposited data

Results flagged for a closer look

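In 3 of the 27 gene and group sets of 4 arrays, 1 array stood apart by Dixon's test at the 95% level; chance alone gives such a result in about 1 in 20 sets. Metformin-treated replicate 3 read 7.24 for Irs1, with the next lowest array of its group at 7.95. The same array read 6.73 for Irs2, with the next lowest at 7.31. Without it the metformin-treated livers stayed below untreated transgenic livers for both genes. Wild type replicate 3 read 10.57 for Akt2, with the next lowest wild type array at 10.72; without it the transgenic difference from wild type was 0.11.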

How the results depend on the processing

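Results kept their direction under most settings, and the cause of the changes below was not tested. By the F test all genes were counted only in the fit used, where 24.2% were called. The F test counts of the set below therefore have no such share beside them. With array weights 7 genes of the set were called for transgenic against wild type, 4 for metformin-treated against wild type and 9 by the F test, while 4818, 6428 and 3057 genes were called over the array in the 3 comparisons (2111, 3695 and 364 in the fit used), and Pik3r1 in metformin-treated against wild type livers turned to 0.15. With the sex covariate 0 genes of the set were called with metformin and 2 by the F test, and 650, 82 and 14 over the array; Akt2 with metformin turned to -0.0299, and also (-0.0299) with the covariate and no transgenic replicate 2. That last fit called 1845 and 29 genes for the comparisons with metformin-treated livers, and Grb14 with metformin turned to 0.0943. In arrays of 1 sex signal 0 genes of the set were called for transgenic against wild type in limma, with 9 called over the array. At an unadjusted p under 0.05, a threshold at which all genes were not counted, the set had 6 there. For metformin-treated against wild type 1 gene was called over the array. Trend and robust settings called 227 genes for metformin-treated against wild type, and fitting only the 8 arrays compared called 2354 with metformin, ended the Pdpk1 call there (adjusted p = 0.0587) and added Insr in transgenic against wild type (0.0458). At a threshold of 0.01 there were 422, 1653 and 28 genes, and at 0.1 there were 3487 and 837 in the comparisons with wild type. Centring arrays on their medians turned Grb14 in transgenic against wild type (0.0101) and Akt2 with metformin (-0.0126), raised the called genes of the set in the first comparison to 6 with Insr and Akt2, moved the split of called genes from 1192 higher and 919 lower to 1614 and 552, and with metformin from 1583 and 2112 to 1108 and 2591.

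Leaving out 1 array gave 3 to 6, 4 to 7 and 0 to 0 called genes of the set in the 3 comparisons. By the F test there were 4 to 9, the most without metformin-treated replicate 3, and all genes were not counted by that test. Over the array the ranges were 764 to 4004 (without transgenic replicates 3 and 2), 2419 to 4828 (the same replicates) and 70 to 775 (without metformin-treated replicates 4 and 3). The first count also moved by over 1.5 times without transgenic replicate 1 or 4, any wild type array or metformin-treated replicate 3, and the last without any wild type array, metformin-treated replicate 1 or 2 or transgenic replicate 2. The estimate of Grb14 in transgenic against wild type ran from -0.21 to 0.0300, turning without transgenic replicate 4 (0.0255) or wild type replicate 3 (0.0300). Against wild type, Pik3r1 ran from -0.28 to 0.12 in metformin-treated livers, turning without metformin-treated replicate 3 (0.12), and Insr from -0.00546 to 0.20, turning without replicate 4. With the replicate number as a block 5 genes of the set were called for transgenic against wild type, with Pik3r1 added (-0.85, adjusted p = 0.0450), 5 with metformin and 0 against wild type, and 135 genes over the array in the last; the replicate block changed no other call of the 9 genes.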

Other observations

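Some of the 9 genes deviated together from animal to animal within groups. After each group's mean was taken off, Pearson's r over the 12 arrays was 0.85 between Irs1 and Irs2, 0.86 between Pdpk1 and Akt1, 0.86 between Irs2 and Pdpk1 and 0.83 between Insr and Pik3r1. It was -0.81 between Irs2 and Grb14. The arrays farthest from their group means, transgenic replicate 2 and metformin-treated replicate 3, enter every one of these values, so they are given as a description.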
